A study of Mus musculus with 8 samples.

Results

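Olfactory receptor genes that gave reads in mouse testis were examined in RNA sequencing of whole testis. They were chosen by their counts: all genes whose symbol in the GENCODE M21 annotation begins with Olfr were taken where those counts summed to 80 or more over 8 libraries. Of 1407 Olfr genes, 101 met this rule, 425 had a sum of 1 to 79 and 881 had no count in any library. Olfr273 was singled out from earlier results of these data because it was high after LPS and low in 1 treated group. The question asked of the other 100 genes was whether any of them followed the same course. Course here means the levels across the groups, since no time series was made.

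All animals were wild-type male mice (strain and age: not given in the sources used here). CTRL received phosphate buffered saline (PBS), LPS received lipopolysaccharide, a bacterial cell wall component that causes inflammation, LPS+DHEA received LPS and then DHEA, and LPS+DHEA+Nb received LPS and then DHEA together with Nb23-bi, an agent named without a description. DHEA, alone or with Nb23-bi, was injected into the peritoneum 6 h after LPS. Each group had 2 libraries. The sources used here give no doses and no time of tissue collection. A matching vehicle injection for the LPS group is not stated, so DHEA and the act of the second injection cannot be told apart. The labels do not say whether the 2 libraries of a group came from separate animals, so p-values measure only the spread between these libraries, which may be technical.

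The libraries held 61.3 to 64.5 M counts each. The label's testis was borne out by germ cell transcripts: the 8 spermatid markers together took 16040 to 18930 CPM (counts per M counts of the library, after scaling) over the 8 libraries. Their sum was 18340 to 18930 CPM in CTRL and 16050 to 16770 under LPS. It was 16040 to 17650 under LPS+DHEA and 17430 to 17750 under LPS+DHEA+Nb, with no test made of the sum. The protocol for RNA isolation names islets instead, and the label was followed. Of 5 epididymal markers Lcn5 had no count in any library and 3 had at most 10 in any, while Rnase10 had 173 to 290. Of 10 markers of olfactory sensory neurons, Omp had 20 counts in LPS 2 and none elsewhere and Cnga2 had 8 in LPS+DHEA 2 alone, while Gnal, Adcy3, Cnga4, Ano2 and Rtp1 had counts in every library, and the 10 together took 19.4 to 24.8 CPM.

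Olfactory receptors are G protein-coupled receptors with a single coding exon, and they form a very large gene family in the mouse. In the nose each sensory neuron uses 1 of them, which couples through the G protein subunit encoded by Gnal and the adenylyl cyclase encoded by Adcy3 to a cyclic nucleotide-gated channel. A subset is transcribed in testis, mostly in germ cells, and some receptors have been studied in sperm movement.

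The receptors are told apart by sequence, and the segments below set Olfr273 beside the receptors that the results turn on. The segments were cut around a conserved site, so they do not measure how far apart the receptors are. Each is 60 bases of coding sequence read 5′ to 3′ from the M21 transcript, with its GRCm38 position taken from the M21 coding exon. Capitals mark the 9 bases that code the amino acids Asp-Arg-Tyr, a triplet conserved in this receptor class at the inner end of a transmembrane helix. Olfr273 is the receptor asked about, Olfr275 its nearest Olfr neighbour among the 101, Olfr29-ps1 its closest relative among them, Olfr701, Olfr112, Olfr128 and Olfr733 the most abundant with such a segment, Olfr212 the one with the smallest p after LPS, and Olfr734 the one with the profile most like that of Olfr273.
Olfr273: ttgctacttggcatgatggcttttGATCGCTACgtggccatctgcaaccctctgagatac
Olfr275: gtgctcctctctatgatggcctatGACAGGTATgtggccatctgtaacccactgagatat
Olfr29-ps1: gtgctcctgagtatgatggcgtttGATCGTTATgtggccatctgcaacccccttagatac
Olfr701: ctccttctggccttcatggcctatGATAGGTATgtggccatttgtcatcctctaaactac
Olfr112: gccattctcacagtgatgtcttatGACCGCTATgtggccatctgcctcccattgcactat
Olfr128: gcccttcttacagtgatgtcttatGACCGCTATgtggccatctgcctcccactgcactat
Olfr733: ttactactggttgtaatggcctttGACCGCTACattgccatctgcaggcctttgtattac
Olfr212: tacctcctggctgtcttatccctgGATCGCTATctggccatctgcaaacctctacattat
Olfr734: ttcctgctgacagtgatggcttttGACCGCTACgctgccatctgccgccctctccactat

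The segment of Olfr273 lies at chr4:52856116-52856175 on the minus strand and that of Olfr275 at chr4:52825735-52825794 on the plus strand. Olfr29-ps1 was read at chr4:43781927-43781986, Olfr701 at chr7:106818421-106818480, Olfr112 at chr17:37563914-37563973, Olfr128 at chr17:37923904-37923963, Olfr733 at chr14:50298912-50298971, Olfr212 at chr6:116516133-116516192 and Olfr734 at chr14:50320438-50320497. Of 96 members with an annotated coding sequence, 73 held the triplet. The commonest spelling, GACCGCTAT, was found in 25 of those 73, and the spelling of Olfr273, GATCGCTAC, in 3.

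Over the whole coding sequence, Olfr273 shared 59.1% to 72.0% of aligned bases with 94 other members, with a median of 63.8%. Only pairs aligned over at least 800 bases were counted. Among 1187 Olfr genes with a coding sequence its closest relatives were Olfr157 at 73.4% identity, with 5 counts in all, Olfr159 at 72.1%, with none, and Olfr29-ps1 at 72.0%, a member with a sum of 85. No member was a near copy of Olfr273. Elsewhere in the family near copies were common: 22 members had another Olfr gene at 95% identity or more over at least 500 bases, and none reached 98%. Among them were Olfr127 and Olfr128, both members, at 96.2%. Olfr1372-ps1 and Olfr1383 were 97.3% identical, and Olfr212 and Olfr213 were 96.1% identical. The sources used here do not state how reads with several matches were counted, so the split of counts within such pairs is uncertain.

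The 101 genes were spread over 15 chromosomes. Of them 92 were annotated as protein coding, 5 as polymorphic pseudogenes, 3 as transcribed unprocessed pseudogenes and 1 as an unprocessed pseudogene. Chromosome 7 held 19 of them, out of 293 Olfr genes there, and chromosome 11 held 16 of 104. Chromosome 2 has the most Olfr genes, 370, and 9 of these were members (2.4%), while chromosome 14 gave 10 of 42 (23.8%) and chromosome 16 gave 9 of 45 (20.0%). Within 100 kb of another member lay 67 of the 101. Exons in more than 1 block were annotated for 91, so the transcripts of most members include exons outside the single coding exon.

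Levels were low. The median count sum was 176 over the 8 libraries, or 22 per library, and 59 members had a sum under 200. Only 8 reached a sum of 1000. A count in every library was found for 87 of the 101. Just inside the threshold were Olfr46, with a sum of 81, and Olfr874, with 80, and just outside were Olfr920, with 79, and Olfr307, with 76. Per length of exon, the members ran from 0.0149 CPM per kb in Olfr539 to 4.49 CPM per kb in Olfr701, with a median of 0.125. The median of all 26359 tested genes with a length was 1.66 CPM per kb, and 3 members lay above it.

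**Figure D1:**
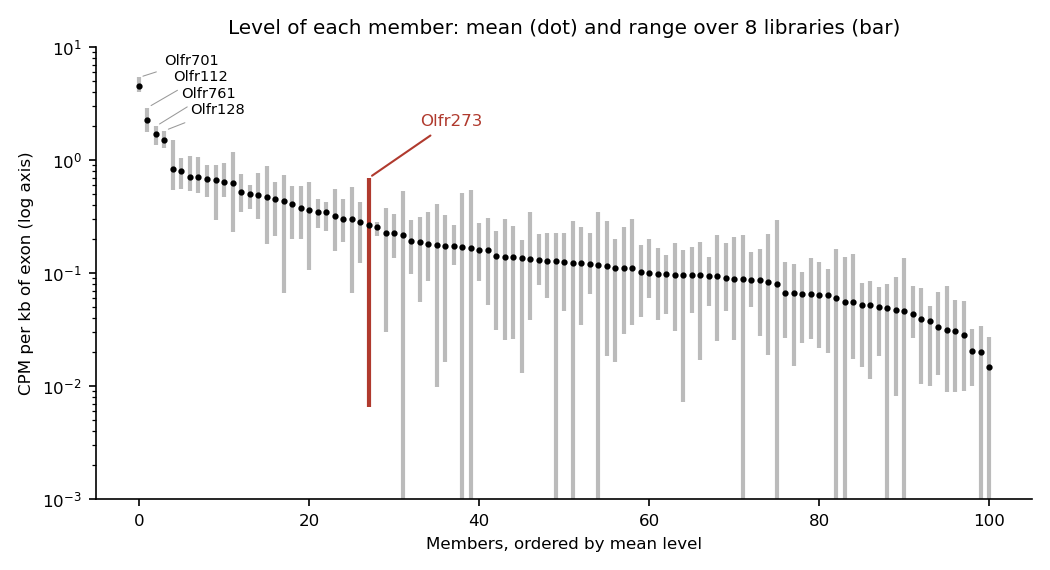
Mean level (dot) and range over the 8 libraries (bar) of each of the 101 members in CPM per kb of exon, on a log axis, ordered by mean level; a bar that runs off the bottom includes a library with no count. Olfr701 leads at 4.49 CPM per kb, and the bar of Olfr273 (red) spans more of the axis than those of its neighbours in this order.

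A few receptors made up most of the signal. Olfr701 alone held 19.7% of the members' summed CPM, the 5 most abundant by CPM held 46.5%, and the 10 most abundant held 57.4%. Olfr701 (chr7:106814129-106821472, plus strand, protein coding) had 1181 and 1203 counts in CTRL, 1118 and 1038 under LPS, 1233 and 1194 under LPS+DHEA, and 1433 and 1103 under LPS+DHEA+Nb. Its level was 16.6 to 22.5 CPM, with both LPS libraries below both CTRL libraries and LPS+DHEA+Nb 2 between the 2 of LPS. In LPS versus CTRL its fitted log2 fold change was -0.14 (SE 0.13, edgeR adjusted p = 0.914).

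Olfr112 (chr17:37561668-37569451, minus strand, protein coding) had 769 and 625 counts in CTRL, 702 and 727 under LPS, 689 and 519 under LPS+DHEA, and 879 and 577 under LPS+DHEA+Nb. The LPS libraries lay between the CTRL libraries, and the log2 fold change in LPS versus CTRL was 0.04 (SE 0.21). Olfr128 (chr17:37920548-37926801, plus strand, protein coding) had 397 and 428 counts in CTRL, 335 and 333 under LPS, 316 and 290 under LPS+DHEA, and 361 and 342 under LPS+DHEA+Nb. Its CTRL libraries were the highest, and the log2 fold change in LPS versus CTRL was -0.30 (SE 0.17, edgeR adjusted p = 0.796). Olfr733 (chr14:50295891-50301522, minus strand, protein coding) had 242 and 163 counts in CTRL, 129 and 232 under LPS, 149 and 169 under LPS+DHEA, and 211 and 186 under LPS+DHEA+Nb, so the LPS libraries lay near opposite ends of its range.

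Olfr1372-ps1, a transcribed unprocessed pseudogene at chr11:52154722-52168159 on the minus strand, had the next highest CPM after Olfr112. It had 325 and 294 counts in CTRL, 412 and 331 under LPS, 591 and 392 under LPS+DHEA, and 423 and 385 under LPS+DHEA+Nb. All 6 libraries from LPS-treated mice were above both CTRL libraries. The log2 fold change in LPS+DHEA versus CTRL was 0.68 (SE 0.21) and did not pass (edgeR adjusted p = 0.574). With 9.812 kb of annotated exon it was 11th per length, at 0.636 CPM per kb, while the single-exon gene Olfr761 followed Olfr701 and Olfr112 per length at 1.71 CPM per kb.

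The receptors' summed level stayed within a narrow range. All 101 together took 94.5 ± 0.592 CPM in CTRL (SD, n = 2), 93.0 ± 1.67 in LPS, 100.3 ± 1.38 in LPS+DHEA and 94.6 ± 9.71 in LPS+DHEA+Nb. Both LPS+DHEA libraries were above those of CTRL and LPS, with no test made of the sum, and the LPS+DHEA+Nb libraries, at 101.5 and 87.7 CPM, spanned the values of the other 3 groups. Without Olfr273 the group means were 94.4, 90.4, 97.9 and 94.5 CPM. In whole tissue, fewer cells of a type and less RNA per cell cannot be told apart in any of these values.

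Olfr273 (ENSMUSG00000049648, chr4:52852154-52859236, minus strand, protein coding) is annotated with 3 transcripts and 3 exon blocks totalling 4.805 kb, and no other annotated gene overlaps it. It had 4 and 2 counts in CTRL, 121 and 208 under LPS, 164 and 140 under LPS+DHEA, and 5 and 4 under LPS+DHEA+Nb. Both LPS libraries and both LPS+DHEA libraries were far above the other 4. In CPM the group means were 0.0476 ± 0.0231 (SD, n = 2) for CTRL, 2.62 ± 1.01 for LPS, 2.43 ± 0.195 for LPS+DHEA and 0.0709 ± 0.0110 in LPS+DHEA+Nb.

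The low level was therefore seen with DHEA and Nb23-bi together and not with DHEA alone. No group received Nb23-bi without DHEA, so Nb23-bi by itself and the combination cannot be told apart. Summed over the 2 libraries, LPS was 55.95-fold higher than CTRL, with a 95% exact counting interval of 25.4 to 153.6, and LPS+DHEA was 52.2-fold higher than CTRL (23.7 to 143.4). LPS was 36.95-fold higher than LPS+DHEA+Nb (19.2 to 81.5). The ratio of LPS to LPS+DHEA was 1.07 (0.914 to 1.26), and that of LPS+DHEA+Nb to CTRL was 1.51 (0.481 to 5.17). These ratios describe a gene chosen for this course and carry no test, and their intervals cover counting error only. The file values had an excess of multiples of 4 among low counts, and with counts divided by 4 the interval for LPS over CTRL widened to 11.2 to 351.2 around 41.8.

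**Figure D2:**
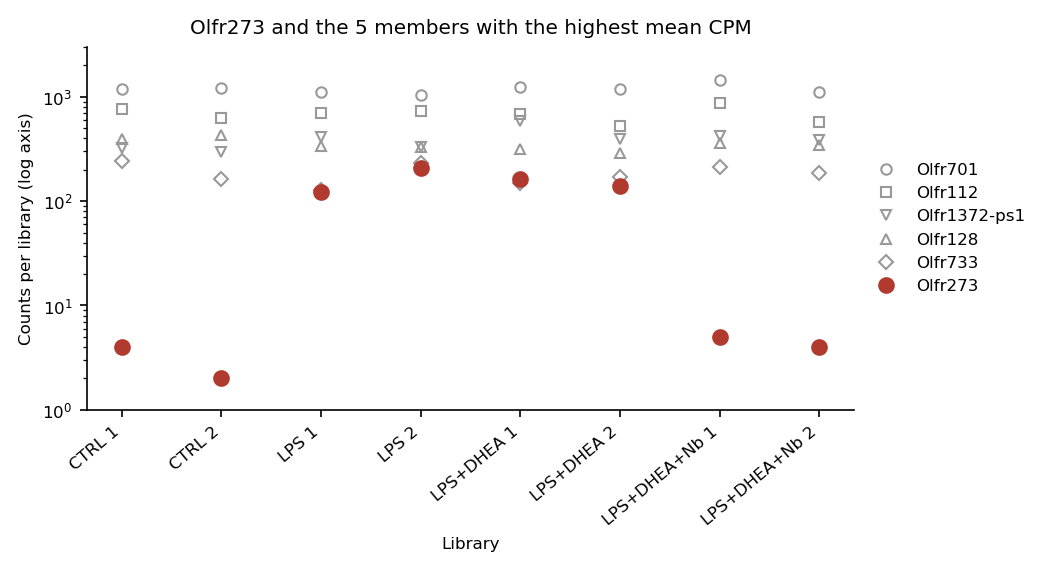
Counts in each of the 8 libraries, on a log axis, for Olfr273 (red) and the 5 members with the highest mean CPM (open grey symbols). Olfr273 stands at 2 to 5 counts in the CTRL and LPS+DHEA+Nb libraries and at 121 to 208 in the LPS and LPS+DHEA libraries, while the other 5 stay within 129 to 1433 throughout.

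Among the 101 genes Olfr273 ranked 101st by mean CPM in CTRL, 7th in LPS, 7th in LPS+DHEA and 100th in LPS+DHEA+Nb. Its highest group mean was 54.96 times its lowest. The next such ratio was 16.1, in Olfr930, and the median over the 101 was 2.13. For 48 members all 4 group means lay within 2-fold. Members were taken by their count sum over all libraries, so genes low in every group were left out. Olfr273 met that rule through its LPS and LPS+DHEA counts, which summed to 329 and 304, against 6 in CTRL and 9 in LPS+DHEA+Nb. Its near-last ranks in CTRL and LPS+DHEA+Nb therefore follow largely from the choice of genes. Its ratio is that of a gene chosen for this course, and neither the ranks nor the ratio is a test.

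The genes around Olfr273 did not show its course. Olfr274-ps1, a pseudogene 9.1 kb away on the lower-coordinate side, had no count except 3 in LPS+DHEA+Nb 2, and Gm47786, 18.8 kb away on the other side, had none. Olfr275, a member 23.9 kb away, had 70 and 193 counts in CTRL, 59 and 114 under LPS, 106 and 94 under LPS+DHEA, and 135 and 39 under LPS+DHEA+Nb. Its groups overlapped, and its log2 fold change in LPS versus CTRL was -0.59 (SE 0.65, edgeR adjusted p = 0.934). Olfr271-ps1, a member 76.2 kb away, had 18 and 12 counts in CTRL, 4 and 36 under LPS, 33 and 21 under LPS+DHEA, and 45 and 39 under LPS+DHEA+Nb. Its highest libraries were those of the group in which Olfr273 was low, and its log2 fold change in LPS+DHEA+Nb versus LPS was 1.05 (SE 0.83, edgeR adjusted p = 0.911). Abca1, a cholesterol transporter gene 171.6 kb away, was at 41.1 CPM in CTRL, 52.3 in LPS, 47.5 in LPS+DHEA and 52.1 in LPS+DHEA+Nb.

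**Figure D3:**
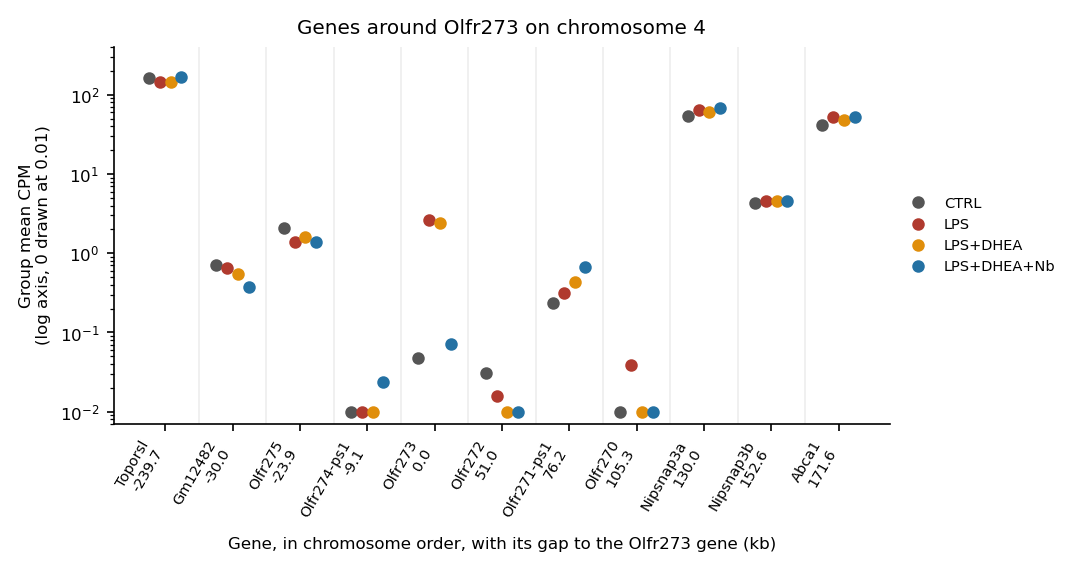
Group mean CPM, on a log axis with 0 drawn at 0.01, for the genes with a count around Olfr273 on chromosome 4, in chromosome order and evenly spaced, with each gene's gap to Olfr273 in kb. Only Olfr273, among the genes drawn, has its LPS and LPS+DHEA means more than 10 times its CTRL and LPS+DHEA+Nb means.

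After LPS, none of the other 100 receptors was called against CTRL by edgeR's quasi-likelihood test at an adjusted p under 0.05, and none by DESeq2. Over all genes tested, edgeR called 0.295% of 26414 and DESeq2 1.06% of 26453. At an unadjusted p under 0.05 edgeR gave 5 of the 100, against 7.11% of all genes. DESeq2 gave 4 of the 100, against 1781 of all 38350 genes with a count. The median log2 fold change of the 100 was 0.01, against 0.00 for all genes, and 51 of the 100 were above 0, against 49.6% of all genes. The range of the 100 was -3.91 to 2.24 and their median SE was 0.88, so for a typical member a change of 2-fold was about the size of its error. Both LPS libraries exceeded both CTRL libraries in 21 of the 100, against 18.9% of all genes, and both fell below in 18, against 18.1%.

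The 5 members with the smallest unadjusted p in LPS versus CTRL went in both directions. Olfr212 (chr6:116506516-116517965, plus strand, protein coding) had 100 and 95 counts in CTRL, 154 and 188 under LPS, 122 and 111 under LPS+DHEA, and 104 and 128 under LPS+DHEA+Nb. Its LPS libraries were the highest of the 8, and the treated groups lay between them and CTRL. The log2 fold change in LPS versus CTRL was 0.82 (SE 0.27, edgeR adjusted p = 0.491), and in LPS+DHEA+Nb versus LPS it was -0.57 (SE 0.27, adjusted p = 0.779).

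Olfr975 had 22 and 52 counts in CTRL, 10 and 16 under LPS, 43 and 55 under LPS+DHEA, and 30 and 42 under LPS+DHEA+Nb. Its LPS libraries were the lowest of the 8, with log2 fold changes of -1.49 (SE 0.60) in LPS versus CTRL, 1.92 (SE 0.60) in LPS+DHEA versus LPS and 1.45 (SE 0.60) in LPS+DHEA+Nb versus LPS. None of the 3 passed, with edgeR adjusted p of 0.633, 1 and 0.722.

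Olfr127, beside Olfr128 on chromosome 17, had 249 and 206 counts in CTRL, 121 and 162 under LPS, 137 and 195 under LPS+DHEA, and 120 and 146 under LPS+DHEA+Nb. Its CTRL libraries were the highest, and the log2 fold change in LPS versus CTRL was -0.68 (SE 0.29, edgeR adjusted p = 0.665). Olfr1330 had 3 and 7 counts in CTRL, 28 and 20 under LPS, 24 and 6 under LPS+DHEA, and 34 and 18 under LPS+DHEA+Nb. Its LPS+DHEA+Nb libraries were also above both CTRL libraries, and its log2 fold change in LPS versus CTRL was 2.24 (SE 0.98, edgeR adjusted p = 0.683). Olfr930 had 18 and 31 counts in CTRL, 0 and 3 under LPS, 13 and 0 under LPS+DHEA, and 8 and 10 under LPS+DHEA+Nb, and it too did not pass (edgeR adjusted p = 0.687).

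**Figure D4:**
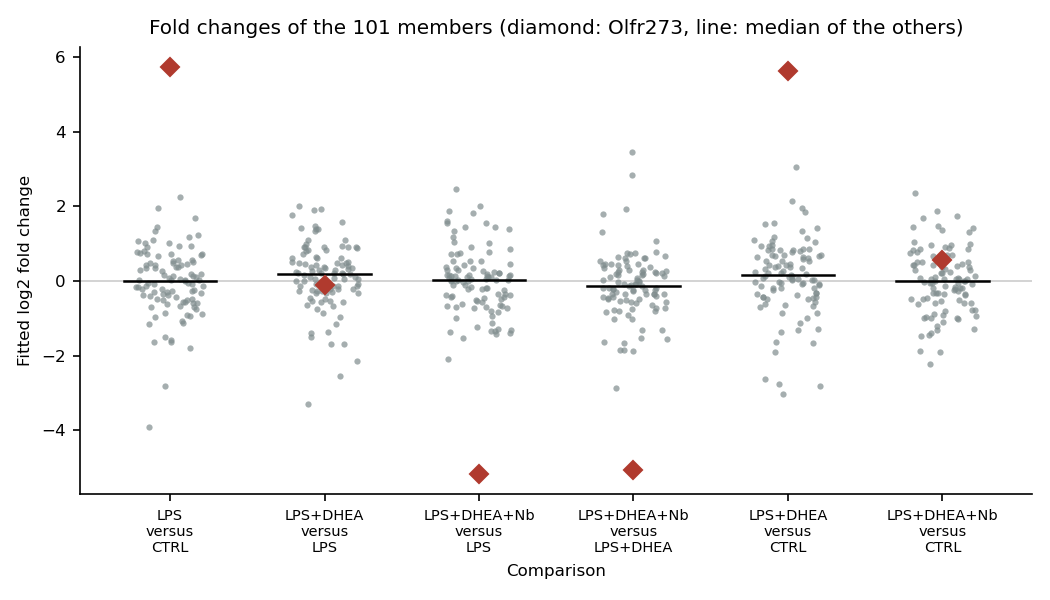
Fitted log2 fold change of each of the 101 members in the 6 comparisons, with Olfr273 as a red diamond, the other 100 as grey points (spread sideways at random) and their median as a black line. In LPS versus CTRL the 100 lie between -3.91 and 2.24 around a median of 0.01, and Olfr273, which was chosen for this contrast, stands at 5.73.

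In LPS+DHEA versus LPS no other member was called by edgeR, which called 0.0189% of all genes, or by DESeq2, which called 0.148%. At an unadjusted p under 0.05 edgeR gave 6, against 3.51% of all genes. DESeq2 gave 3 of the 100, against 938 of all 38350 genes with a count. The median log2 fold change of the 100 was 0.20, against 0.00 for all genes, and 61 were above 0, against 50.7% of all genes. The 2 LPS+DHEA libraries were both above the LPS libraries in 23, against 16.1% of all genes, and both below in 15, against 15.7%. Besides Olfr975, the smallest p-values were those of Olfr1280, with 23 and 20 counts in CTRL, 13 and 17 under LPS, 30 and 46 under LPS+DHEA, and 62 and 50 under LPS+DHEA+Nb, and Olfr1033, with 23 and 52 in CTRL, 17 and 22 under LPS, 78 and 39 under LPS+DHEA, and 11 and 5 under LPS+DHEA+Nb. Both were higher in LPS+DHEA than in LPS, by a log2 fold change of 1.35 (SE 0.53) for Olfr1280 and 1.58 (SE 0.64) for Olfr1033, and neither passed (edgeR adjusted p = 1 for each).

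LPS+DHEA+Nb versus LPS was the comparison in which Olfr273 was low. In it no other member was called by edgeR, which called 0.17% of all genes, or by DESeq2, which called 0.817%. At an unadjusted p under 0.05 DESeq2 gave 1 of the 100, against 1648 of all 38350 genes with a count. By edgeR there were 2, Olfr1280 and Olfr975, against 6.56% of all genes. Both were higher in LPS+DHEA+Nb, the opposite direction to Olfr273, with a log2 fold change of 1.88 (SE 0.53, edgeR adjusted p = 0.405) in Olfr1280. The median over the 100 was 0.03, against 0.00 for all genes, and 53 were above 0, against 50.4%. Both LPS+DHEA+Nb libraries lay below both LPS libraries in 15 of the 100, against 18.6% of all genes, and above in 16, against 18.1%.

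In LPS+DHEA+Nb versus LPS+DHEA no other member was called by edgeR, which called 0.0871% of all genes, or by DESeq2, which called 0.393%. An unadjusted p under 0.05 was given to 4.4% of all genes by edgeR and to 1106 of all 38350 genes with a count by DESeq2. Among the other members each tool gave 2. These 2 by edgeR were Olfr1033, whose log2 fold change was -2.86 (SE 0.69, adjusted p = 0.451), and Olfr732, at -1.85 (SE 0.78). Olfr1033 did share with Olfr273 a low level in LPS+DHEA+Nb, but its LPS libraries, at 17 and 22 counts, were below its CTRL libraries. Against CTRL, no other member was called by either tool in LPS+DHEA, where edgeR called 0.151% of all genes and DESeq2 0.654%, or in LPS+DHEA+Nb, where edgeR called 0.0303% and DESeq2 0.287%. In these 2 comparisons edgeR gave 3 and 4 at an unadjusted p under 0.05, against 5.72% and 4.28% of all genes. DESeq2 gave 2 and 3, against 1467 and 1082 of all 38350 genes with a count.

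The counts of members whose 2 groups did not overlap were also near those of all genes in these 3 comparisons. In LPS+DHEA+Nb versus LPS+DHEA 13 of the 100 were higher (15.7% of all genes) and 19 lower (17.1%). In LPS+DHEA versus CTRL 24 were higher (18.6%) and 21 lower (16.6%), and in LPS+DHEA+Nb versus CTRL 18 were higher (16.4%) and 18 lower (16.5%).

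The course of Olfr273 was then asked for directly, as an order of the libraries and not as a test. Both LPS libraries above both CTRL libraries and both LPS+DHEA+Nb libraries below both LPS libraries was met by Olfr273 and by 5 others, Olfr162-ps1, Olfr19, Olfr212, Olfr29-ps1 and Olfr316, against 9.18% of all genes. The same order with LPS+DHEA in place of LPS+DHEA+Nb was met by 7 others, against 7.1% of all genes, and was not met by Olfr273. Olfr19, Olfr212 and Olfr29-ps1 met both, against 4.75% of all genes. These shares are near or below those of all genes. When the LPS libraries had to be at least 1.5 times those of the other groups, no other member met any of the 3 orders, but few genes did: 0.935% of all genes for the order with LPS+DHEA+Nb, 0.504% for that with LPS+DHEA and 0.201% for both, so a count of 0 in 100 is near these shares. The order that Olfr273 itself followed, with all 4 LPS and LPS+DHEA libraries above all 4 others, was met by none of the 100 and by 812 genes in all, 3.07% of those tested.

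The members that met both orders did so by small steps. Olfr19 had 42 and 33 counts in CTRL, 54 and 50 under LPS, 32 and 15 under LPS+DHEA, and 28 and 32 under LPS+DHEA+Nb, and its log2 fold change in LPS versus CTRL was 0.47 (SE 0.50). Olfr29-ps1, the closest member to Olfr273 by coding sequence, had 14 and 4 counts in CTRL, 20 and 15 under LPS, 12 and 7 under LPS+DHEA, and 12 and 1 under LPS+DHEA+Nb. Its log2 fold change in LPS versus CTRL was 0.95 (SE 1.24, edgeR adjusted p = 0.944).

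Likeness to the Olfr273 profile was measured as the root mean square difference of centred log2 CPM over the 8 libraries, with a prior count of 2, so that a smaller value is more alike. A flat profile would stand at 2.42. The closest members were Olfr734 at 1.85, Olfr539 at 1.87, Olfr77 at 1.98, Olfr1389 at 2.02 and Olfr29-ps1 at 2.10, and the median of the 100 was 2.47. Olfr734, the closest, had 6 and 0 counts in CTRL, 12 and 12 under LPS, 14 and 37 under LPS+DHEA, and 15 and 6 under LPS+DHEA+Nb, so its last group overlapped its LPS libraries. Olfr1389 had 24 and 16 counts in CTRL, 40 and 28 under LPS, 37 and 51 under LPS+DHEA, and 30 and 14 under LPS+DHEA+Nb.

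Of all 26414 genes tested, 193 were closer to Olfr273 than any other member was. Olfr genes below the count threshold were not compared as members and may be among them. The median distance over all genes was 2.44, against 2.47 for the 100 members. The nearest genes were picked from 26414 and the nearest members from 100, so their distances cannot be set side by side as like for like. The nearest by symbol were Cxcl13, a B cell attracting chemokine, at 0.758, S100a8, a calcium-binding protein abundant in neutrophils, at 0.773, Clec4e, a lectin receptor of myeloid cells, at 0.823, Saa2, an acute phase protein, at 0.858, and Ackr1, a chemokine-binding receptor of venules and red cells, at 0.947. Cxcl13 had 6 and 8 counts in CTRL, 235 and 199 under LPS, 150 and 133 under LPS+DHEA, and 30 and 8 under LPS+DHEA+Nb. S100a8 had 0 and 0 counts in CTRL, 81 and 49 under LPS, 107 and 34 under LPS+DHEA, and 2 and 6 under LPS+DHEA+Nb. In each of the 5, all 4 LPS and LPS+DHEA libraries were above the other 4.

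**Figure D5:**
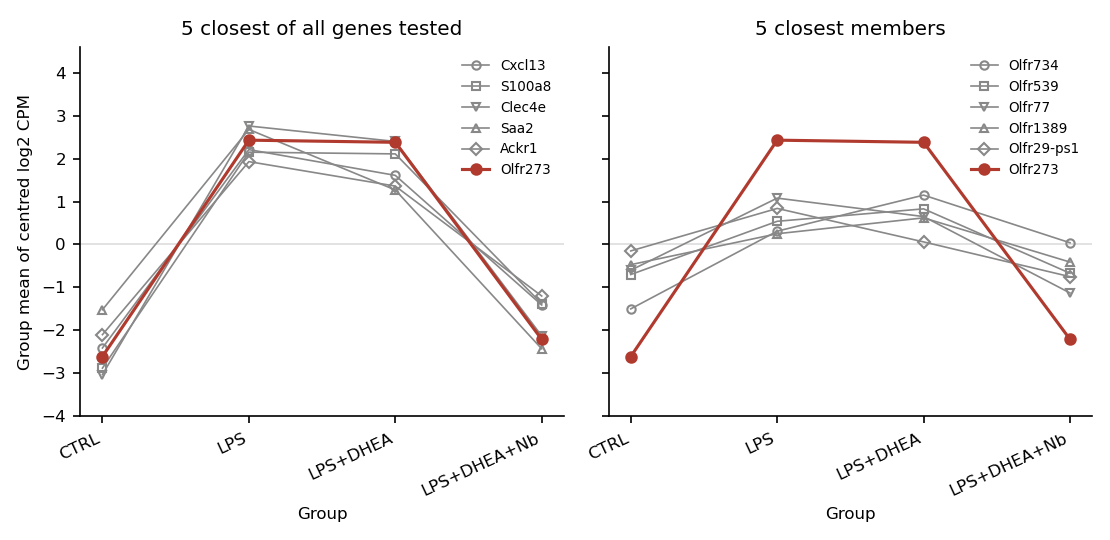
Group mean of centred log2 CPM (each gene's mean over the 8 libraries set to 0) for Olfr273 (red) with the 5 genes nearest to it among all genes tested (left) and the 5 nearest members (right); lines join the groups of a gene. The genes on the left follow Olfr273 to within 0.947 root mean square, and the members on the right are at 1.85 to 2.10. Those on the left were picked from 26414 genes and those on the right from 100.

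Of the neutrophil markers, S100a8 was called higher in LPS versus CTRL and in LPS+DHEA versus CTRL by edgeR, and the other 4 tested were not called in any comparison. The summed level of all 6 was 0.766 to 1.13 CPM in CTRL, 3.57 to 5.70 under LPS, 2.62 to 5.43 under LPS+DHEA and 1.04 to 1.5 under LPS+DHEA+Nb. S100a8, Retnlg and Cxcr2 had no count in CTRL, and Ly6g had none in any library but LPS+DHEA+Nb 1. Csf3r, with 71 and 44 counts in CTRL, 89 and 72 under LPS, 94 and 74 under LPS+DHEA, and 19 and 81 under LPS+DHEA+Nb, had overlapping groups in CTRL and LPS+DHEA+Nb.

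Of the 3 peritubular markers, Acta2, a smooth muscle actin gene, was called higher in LPS and in LPS+DHEA versus CTRL and lower in LPS+DHEA+Nb versus each of them, and Myh11 and Des were not called. Acta2 had 2835 and 2986 counts in CTRL, 6539 and 5853 under LPS, 5365 and 6233 under LPS+DHEA, and 3248 and 3362 under LPS+DHEA+Nb. The summed level of the 3, to which Acta2 gave the most, was 78.4 to 83.0 CPM in CTRL, 151.5 in both LPS libraries, 132.8 to 155.3 under LPS+DHEA and 86.3 to 90.9 under LPS+DHEA+Nb. The 6 Leydig cell markers went the other way in sum, at 837.7 to 969.8 CPM in CTRL, 676.5 to 699.3 under LPS, 602.0 to 614.0 under LPS+DHEA and 777.8 to 903.5 under LPS+DHEA+Nb. Their median log2 fold change in LPS versus CTRL was -1.14, and none of the 6 was called by edgeR in any comparison. The 7 macrophage markers stood at 72.2 to 90.7 CPM in sum over the 8 libraries, but they moved in both directions. In LPS versus CTRL 3 of the 7 had a log2 fold change above 0, and none was called by edgeR. Cx3cr1 had 180 and 217 counts in CTRL and 86 and 69 under LPS. It had 66 and 100 under LPS+DHEA and 226 and 220 under LPS+DHEA+Nb. Adgre1 had 324 and 290 in CTRL and 385 and 590 under LPS. The part of these cells in the Olfr273 values was not tested.

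Receptors known from other work were also read. Olfr16, the mouse receptor known from sperm chemotaxis, had no count in any of the 8 libraries, where 3 counts, the limit a count of 0 allows, would be 0.0465 to 0.0490 CPM. Olfr78, a receptor for short chain fatty acids and lactate in other tissues, was a member with 20 and 25 counts in CTRL, 9 and 28 under LPS, 5 and 9 under LPS+DHEA, and 19 and 4 under LPS+DHEA+Nb. Its groups overlapped in LPS versus CTRL, with a log2 fold change of -0.27 (SE 1.00).

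Overlapping annotation limits some members. Exon bases were shared with another gene in 14 of the 101. In Olfr20 90.9% of exon bases also belonged to Gm49340, and in Olfr1344 72.8% belonged to Gm20715, so reads there may be split between the genes. Olfr56 shared 2.4% of its exon bases with Ifi47, an interferon-induced GTPase gene. None of the 5 most abundant members, Olfr273, or Olfr212 shared any.

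The downstream signalling genes were measured from lists. Of 22 genes of olfactory transduction, 18 were tested and none was called in any of the 6 comparisons by edgeR, and their median log2 fold change in LPS versus CTRL was -0.02. Among the abundant ones by CPM were broadly used genes: Pde1c, a phosphodiesterase, at 205.9 CPM, Gnb1, a G protein beta subunit, at 157.5, Pde4a, another phosphodiesterase, at 101.3, and Grk3, a receptor kinase, at 82.7. Gnal had 412 and 427 counts in CTRL, 364 and 452 under LPS, 428 and 278 under LPS+DHEA, and 335 and 300 under LPS+DHEA+Nb. Adcy3 was at 5.13 CPM and the channel subunit gene Cnga4 at 4.89, whereas Cnga2, the channel's main subunit gene in the nose, had 8 counts in LPS+DHEA 2 and none elsewhere. The 14 genes of receptor gene choice, such as Lhx2, Ldb1 and Kdm1a, were all tested and none was called.

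Of 22 genes of sperm G protein and cAMP signalling, all tested, Arrb1 alone was called in any comparison. Arrb1, which encodes beta-arrestin 1, an adaptor that binds active receptors, had 1119 and 1185 counts in CTRL, 708 and 533 under LPS, 1483 and 1594 under LPS+DHEA, and 1454 and 1688 under LPS+DHEA+Nb. It fell in LPS versus CTRL (log2 fold change -0.89, edgeR adjusted p = 0.0391) and rose in LPS+DHEA versus LPS (1.32, adjusted p = 0.0153) and in LPS+DHEA+Nb versus LPS (1.33, adjusted p = 0.0045). The most abundant of the list by CPM, the sperm tail anchoring genes Akap4 at 1889 CPM and Akap3 at 1268 and the soluble adenylyl cyclase gene Adcy10 at 377.8, did not pass in any comparison.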

How the data were processed

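RNA from 8 testis samples was sequenced from stranded KAPA libraries, per the labels' protocols. Per the submitters' processing notes the build was GRCm38 and the tools were featureCounts 1.5.0-p3 and HISAT, whose version, like the strand setting, annotation release and handling of multiple matches, the sources used here do not state. The deposited values were taken as estimated counts (expected counts) per Ensembl gene. They were already whole, so none was changed by rounding. Of values from 1 to 40, 33.5% were multiples of 4, against 25.0% from 1000 to 10000, so the precision of low counts may be overstated. The unit was read from the values, where plain counts had been planned for.

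Each file held 55421 gene identifiers, of which 55240 were matched to GENCODE M21. filterByExpr in edgeR 4.0.16 (minimum count 10, total 15) kept 26414 genes, all 101 members among them. The threshold of 80 counts is a sum over all libraries, without regard to group. A single quasi-likelihood fit of 4 group means (TMM, 4 residual degrees of freedom, R 4.3.3) gave 6 comparisons. The p-values were adjusted by Benjamini-Hochberg over all genes, called under 0.05, and DESeq2 1.42.0 was an alternative. The fit was tested on simulated data. CPM used TMM-scaled totals. Identities to Olfr273 came from global alignment in Biopython 1.88, counted over aligned bases without gaps. Near copies and their identities came from BLAST 2.17.0. SE is the fold change over the root of F.

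Members and lists were chosen with earlier results of these data known. The text names Olfr273 and its neighbours, the 5 most abundant members, the smallest p-values (5 after LPS, 3 in each treated group against LPS), the 5 likest members and genes, 2 members and 2 other genes at the threshold, Olfr16, Olfr78 and the leading or called list genes; further members meeting a stated order were named after their values were seen. Coding segments were read from the M21 transcript sequences, with their positions taken from the M21 exons. No promoter is printed because the RefSeq start of Olfr273 lies 2725 bases from its M21 start.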

Additional observations from a re-analysis of the deposited data

How the results depend on the processing

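No other member was called in any of the 6 comparisons under any of 14 alternatives each (84 in all): DESeq2, DESeq2 size factors, no filter, a filter on CPM, counts divided by 4, the replicate number as a block, and each library left out in turn, so the count stayed at 0 to 0. The lowest adjusted p of any of them was 0.148, by DESeq2 in LPS+DHEA+Nb versus LPS+DHEA. Few genes of any kind passed in the alternatives that kept all libraries. They ran from 5 of 26414 (DESeq2 size factors, LPS+DHEA versus LPS) to 281 of 26453 (DESeq2, LPS versus CTRL). A count of 0 in 100 is near such shares. With the replicate block 0 were called. Deviations of same-numbered libraries were nearly uncorrelated over all genes tested (correlations of -0.033 to 0.031). This measure can miss a shift shared by part of the genes. The labels do not say whether the number marks a pairing or a batch. The order of libraries met by 7, 5 and 3 other members was met by 0, 0 and 0 at a gap of at least 1.5 times, a stricter rule by construction that 0.504%, 0.935% and 0.201% of all genes met. A sum of at least 200 left 42 members, and leaving out 1 library left 85 to 91. Olfr273 in LPS versus CTRL was at a log2 fold change of 6.30 without CTRL replicate 1 and 5.73 with it, and in LPS+DHEA versus LPS at 0.34 without LPS replicate 2 and -0.11 with it; the cause was not tested. Depth limits most members: at a median of 22 counts per library, a filter on CPM left 24 of the 100 to test and counts divided by 4 left 41.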
